A study of Homo sapiens with 3 samples.

Results

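The regions described here are the 1431 p68 sites on chromosomes 4, 5, 6, 10, 13, 18 and 22, out of 14131 p68 sites in all (10.1%), together with the 131 SRA sites on the same chromosomes, out of 7899 (1.66%). The 7 chromosomes were chosen by their low numbers of SRA sites, so the SRA counts that follow are a description and no test was made of them. Chromosome 13 held 51 SRA sites, chromosome 4 held 42, chromosome 10 held 21, chromosome 5 held 12, chromosome 6 held 4, chromosome 18 held 1 and chromosome 22 held none. Just outside the choice, chromosome 19 held 122 SRA sites. Chromosome 14 (10 SRA sites) and chromosome X (5) fall below several of the 7 but were not included in the rule.

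Both site lists come from NTERA2, a human embryonal carcinoma line with properties of pluripotent stem cells that was grown in DMEM with serum and carries an abnormal karyotype. There was no treatment and no second condition. SRA was mapped by ChIRP, in which biotinylated oligonucleotides recover an RNA with the chromatin around it, and p68 by ChIP with an antibody against the protein. For each assay 1 list of positions on hg19 represents 3 biological replicates, with no score or read count, so that depth and spread between replicates are unknown, no test between conditions exists, and every interval below covers counting error only. Neighboring sites are not independent, which makes these intervals too narrow. Input chromatin was not analysed here.

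The protein p68, encoded by DDX5, is a DEAD box RNA helicase that unwinds RNA and acts as a co-activator or co-repressor with DNA-binding transcription factors. SRA, the steroid receptor RNA activator, is a long non-coding RNA first known as a co-activator of nuclear receptors, and it binds p68. Among the 7 chromosomes, 4, 5, 13 and 18 are known as gene-poor and 22 as gene-rich. Chromosomes 13 and 22 are acrocentric, with short arms of repeats that hg19 leaves mostly unsequenced.

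What counts as an SRA site depends on the oligonucleotides used to recover the RNA. The first and the last of the 29 probes are shown because they mark how the SRA list was made. Each is 20 nt long with a GC content of 50%.
SRA_1: ggctgatgtcatcacatacc
SRA_29: tgaggcagcagtttgtttgg
Sequences of the p68 and SRA sites themselves are not printed, because a genome of the build used for the lists was not used here. For the same reason genes at single sites are not named.

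p68 sites were sparse on these chromosomes, with 1.61 sites per 1 Mb window (95% exact Poisson interval 1.53 to 1.70, 1431 sites in 888 windows). Windows of 1 Mb were laid on each chromosome from the first to the last one holding a p68 site, and a site was counted where its midpoint fell. The 15 other autosomes held 6.61 per window (6.49 to 6.72, 12602 sites in 1907 windows). The 7 chromosomes did not share a single level. Chromosome 5 was lowest with 1.08 per window (0.931 to 1.24, 195 sites), followed by chromosome 6 with 1.29 (1.12 to 1.47, 220 sites), chromosome 18 with 1.41 (1.16 to 1.70, 110 sites) and chromosome 4 with 1.54 (1.37 to 1.73, 296 sites). The intervals of these neighbors in the order overlap. Chromosomes 10 and 13 were nearly equal at 2.02 (1.79 to 2.28, 275 sites) and 2.06 (1.78 to 2.37, 196 sites). Chromosome 22, which had no SRA site at all, stood apart at 3.97 per window (3.34 to 4.69, 139 sites), and 3 of the 15 other autosomes had a lower density than it. Of the 7 autosomes with the fewest p68 sites per window, 6 were among those described here. The other autosomes ran from 1.87 per window on chromosome 14 to 12.4 on chromosome 19. A low SRA count was thus found with p68 densities among the lowest on 6 of the 7 chromosomes. Chromosome 22 lay above these 6, but below the 5.02 per window of all 22 autosomes. These differences in density were not tested.

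**Figure D1:**
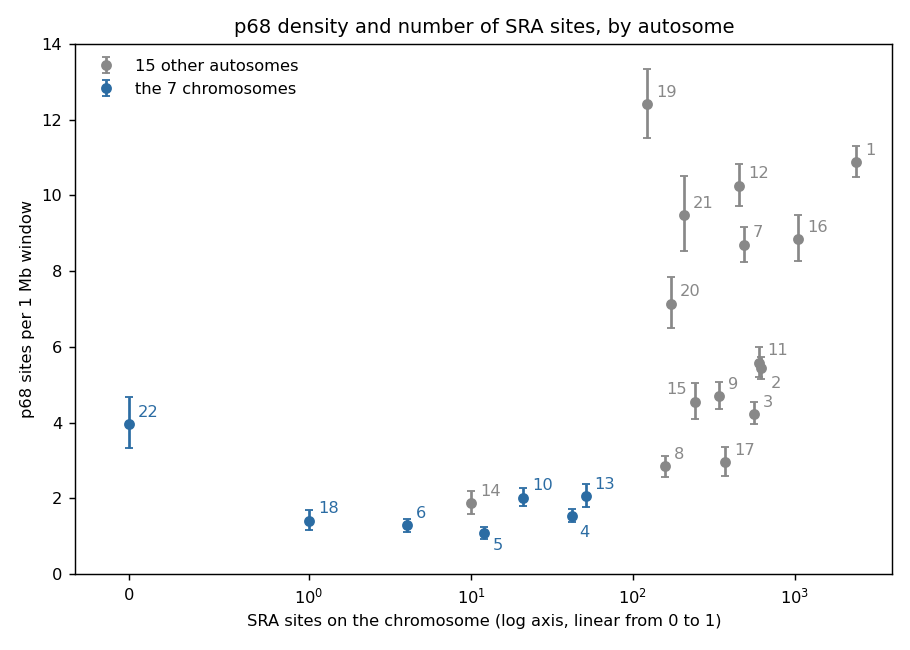
Each point is an autosome, with its number of SRA sites on the horizontal axis (logarithmic above 1) and its p68 sites per 1 Mb window on the vertical axis, with 95% exact Poisson intervals. Of the blue points, 6 lie between 1.08 and 2.06 p68 sites per window, while chromosome 22 lies at 3.97 with no SRA site.

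Much of this sequence carried no p68 site. Of the 888 windows, 382 were empty (43.0%, 95% Wilson interval 39.8 to 46.3%), against 19.5% on the other autosomes. Chromosome 4 had 101 empty windows of 192 and chromosome 5 had 95 of 181, and on both the median window held 0 sites. Chromosome 22 had 3 empty windows of 35, and its median window held 4. The remaining chromosomes had a median of 1 site per window. The longest stretches without p68 were 10408302 bp on chromosome 6 (76051299 to 86459600), 10241658 bp on chromosome 13 (55664654 to 65906311) and 9131171 bp on chromosome 4 (129781020 to 138912190). They were 8816775 bp on chromosome 5 (82324254 to 91141028), 7444498 bp on chromosome 10 (52167004 to 59611501) and 6897551 bp on chromosome 18 (35361712 to 42259262). Chromosome 22 had no p68-free stretch longer than 2799390 bp (32939012 to 35738401). Stretches longer than any of these also lay on 4 of the 15 others, up to 23987876 bp on chromosome 9. Among them was chromosome 8, itself sparse at 2.84 sites per window. Which of these stretches hold unsequenced bases of hg19 was not examined.

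Hot spots, defined as windows with at least 10 p68 sites, made up 2.14% of windows on the 7 chromosomes (95% Wilson interval 1.37 to 3.32%, 19 of 888), against a background of 15% over all 22 autosomes (420 of 2795). They held 241 p68 sites, or 16.8% of the sites (14.99 to 18.9%). On the other autosomes hot spots held 68.4% of sites. Most sites of the 7 chromosomes, 53.0%, lay in windows with 3 to 9 sites, and 30.2% lay in windows with 1 or 2. A window counts as hot by its number of sites alone, so this share is tied to the density, and the difference was not tested.

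The hot spots were unevenly shared. Chromosome 4 had 6, chromosome 13 had 5, chromosome 22 had 3, chromosome 10 had 2, and chromosomes 5, 6 and 18 had 1 each. The fullest windows were on chromosome 4, from 2000001 to 3000000 and from 3000001 to 4000000, with 18 p68 sites each. The first of them held 1 SRA site and the second 2. The window of chromosome 13 from 113000001 to 114000000 held 17 p68 sites, and the one after it, from 114000001 to 115000000, held 15. These chromosome 13 windows had 4 and 2 SRA sites. Another 4 windows of chromosome 4 reached the top 10, beginning at 6000001 (14 p68 sites), 1000001 (13), 7000001 (13) and 8000001 (13), with 6, 4, 3 and 2 SRA sites in that order. The list was completed by the window of chromosome 10 from 134000001 to 135000000, with 13 p68 sites and no SRA site, and that of chromosome 13 from 100000001 to 101000000, with 12 p68 and 10 SRA sites.

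The windows with 12 p68 sites tied for the tenth place, and of these the one on chromosome 13 comes first in chromosome order. On the other chromosomes the fullest window held 12 p68 sites on chromosome 18 (76000001 to 77000000), 12 on chromosome 22 (39000001 to 40000000), 11 on chromosome 5 (176000001 to 177000000) and 10 on chromosome 6 (168000001 to 169000000). Only the window of chromosome 5 also held SRA sites, 5 in number. Across all 19 hot spots 12 held at least 1 SRA site and 7 held none, the latter being on chromosomes 6, 10, 18 and 22. Over the 22 autosomes 343 of 420 hot spots held an SRA site. Since the 7 chromosomes were chosen for few SRA sites, nothing is read from this difference.

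**Figure D2:**
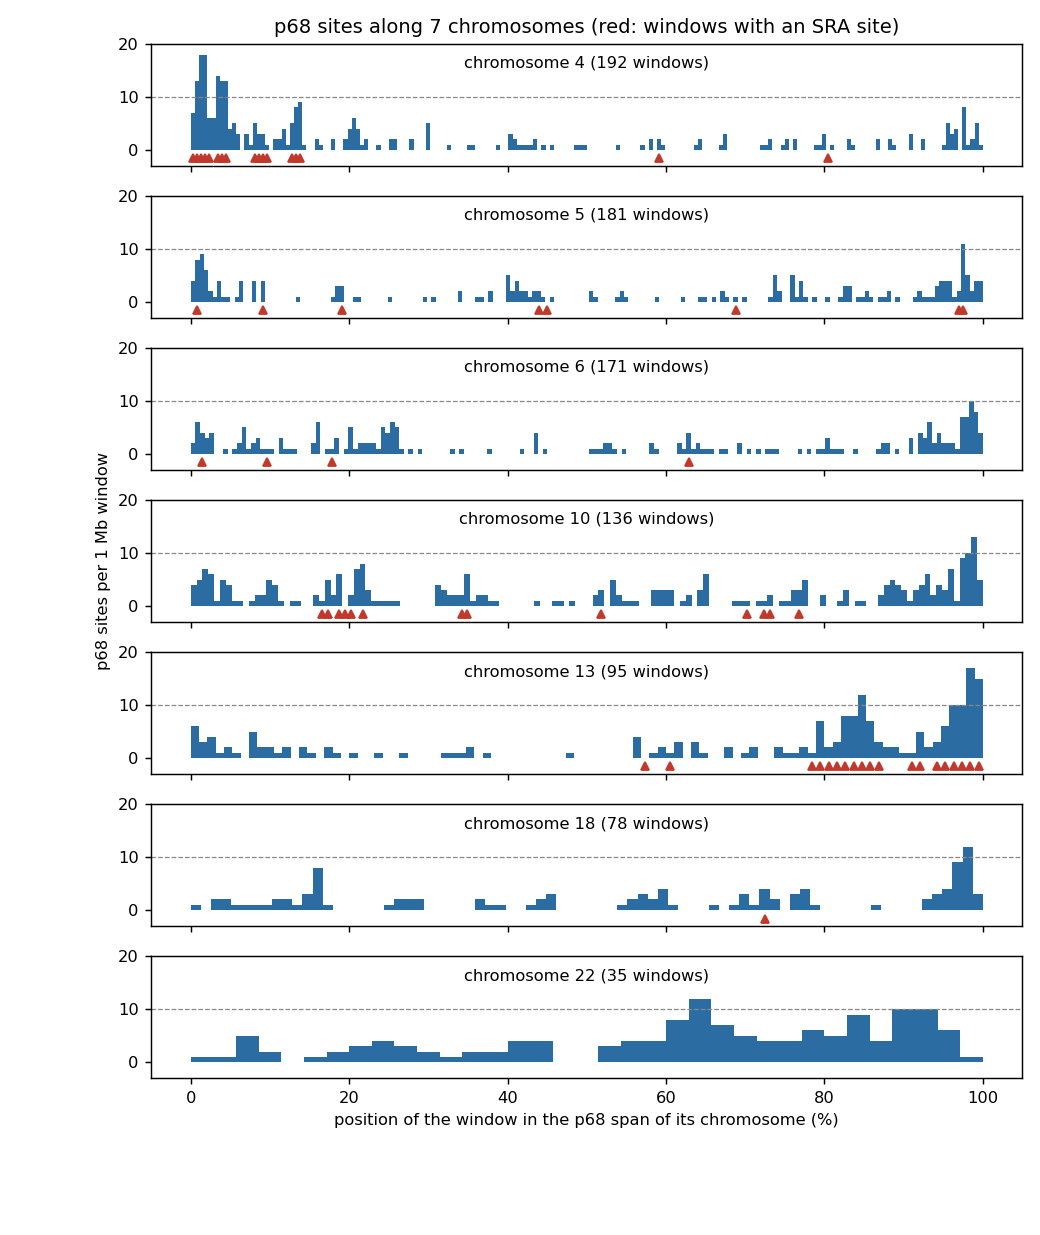
Bars give the p68 sites in each 1 Mb window along the p68 span of each chromosome, from its first (0%) to its last window (100%), red triangles mark windows with at least 1 SRA site, and the dashed line marks 10 p68 sites. Peaks stand at the left end of chromosome 4, at the right end of chromosomes 6, 10, 13 and 18, and at 18 sites at most.

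The hot spots lay mostly near the ends of the chromosomes. This pattern was described after the window counts had been seen. Of the 19 hot spots, 17 were among the first 10 or the last 10 windows of their chromosome's p68 span, windows that made up 15.8% of all windows. Over the 22 autosomes 122 of 420 hot spots lay in such windows, and 105 of 401 on the 15 others. The same windows held 604 p68 sites, or 42.2% of them (95% Wilson interval 39.7 to 44.8%). There were 4.31 p68 sites per end window (3.98 to 4.67) and 1.11 per window between them (1.03 to 1.18), a ratio of 3.90 (95% interval 3.51 to 4.34). On the 15 other autosomes the densities were 10.1 and 5.96, a ratio of 1.69. The difference between these ratios was not tested, and chromosome 4 contributed much to the first one, which was 3.30 without it.

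The last 10 windows were denser than the interior on every one of the 7 chromosomes. On chromosome 13 they held 7 sites per window (5.46 to 8.84), against 1.33 in the interior (1.08 to 1.62). For chromosome 10 the values were 6 (4.58 to 7.72) and 1.56 (1.34 to 1.805), and for chromosome 6 they were 4.70 (3.45 to 6.25) and 1.01 (0.853 to 1.18). These intervals do not overlap. Chromosome 5 had 4.10 (2.94 to 5.56) against 0.733 (0.607 to 0.878), chromosome 18 had 3.30 (2.27 to 4.63) against 1.10 (0.850 to 1.41), and chromosome 4 had 3 (2.02 to 4.28) against 0.895 (0.760 to 1.05). On chromosome 22 the last windows held 5.90 (4.49 to 7.61) and the interior 3.87 (2.94 to 4.999), and here the intervals overlap. Denser last windows were not particular to the 7. Of the other autosomes, only chromosomes 1, 15 and 19 had last 10 windows that were not denser than the interior. The last 10 windows of chromosome 9 held 21 sites per window against 3.496 in its interior. For chromosome 21 the values were 21.9 and 7.263. The pooled value of the other autosomes thus joins chromosomes that differ.

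The first 10 windows behaved less evenly. Chromosome 4 had its highest density there, 11.2 sites per window (9.22 to 13.5), with 112 of its 296 p68 sites in that stretch. Chromosome 5 had 3.60 (2.52 to 4.98) and chromosome 10 had 3.40 (2.35 to 4.75), both above their interiors. Chromosome 6 had 2.10 (1.30 to 3.21), also above its interior. Chromosome 18 had 1.30 (0.692 to 2.22), an interval that overlaps that of its interior. The first windows of chromosomes 13 and 22 begin at 20000001 and 17000001, next to an acrocentric short arm rather than at a tip, and held 2.60 (1.70 to 3.81) and 2.20 (1.38 to 3.33). The value on chromosome 22 was below that of its interior, with overlapping intervals. In 6 of the 7 chromosomes the fullest window was among the 10 at either end, and in 7 of the 15 other autosomes.

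**Figure D3:**
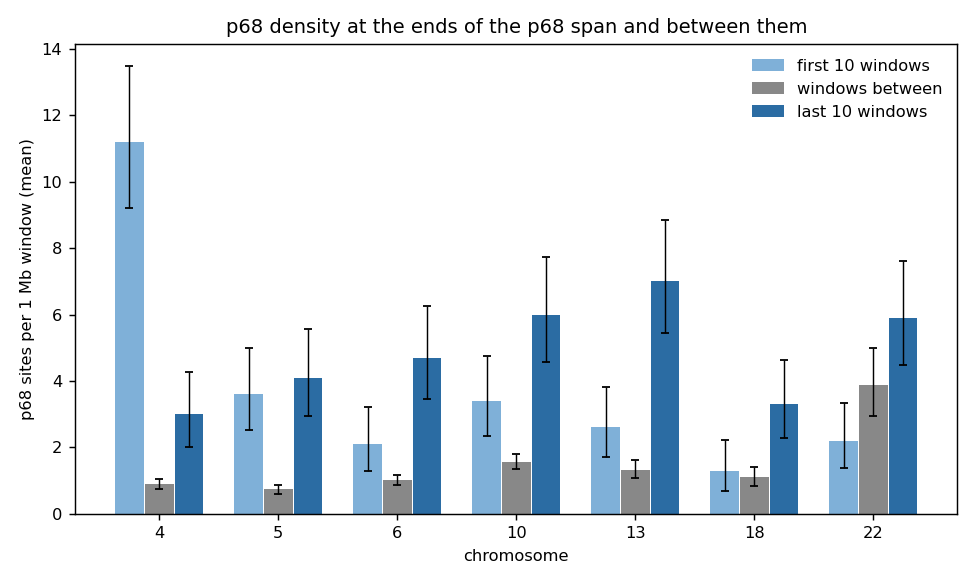
Bars give the mean number of p68 sites per 1 Mb window in the first 10 windows, the last 10 windows and the windows between, for each chromosome, with 95% exact Poisson intervals. The last 10 windows exceed the interior on all 7 chromosomes, from 3 against 0.895 on chromosome 4 to 5.90 against 3.87 on chromosome 22, and the first 10 reach 11.2 on chromosome 4.

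Sites on these chromosomes were mostly single. Within 10 kb of its edges, 13.7% of p68 sites had another p68 site (95% Wilson interval 12.01 to 15.6%, 196 of 1431), against a background of 38.2% over all 22 autosomes. The share was lowest on chromosome 6, at 7.27% (4.53 to 11.5%), and highest on chromosomes 13 and 22, at 20.4% (15.4 to 26.6%) and 20.1% (14.3 to 27.6%). Chromosome 4 had 15.2%, chromosome 10 had 13.1%, chromosome 18 had 10.9% and chromosome 5 had 9.74%. Mostly single sites were not particular to the 7. Among the other autosomes, only chromosomes 1 and 12 had another site within 10 kb for most p68 sites, at 54.6% and 51.1%. Chromosomes 8, 14 and 17 lay within the range of the 7, from 13.49% on chromosome 8 to 16.0% on chromosome 14. The median distance to the nearest p68 site was 90534 bp (79670 to 101925 bp), and 15576 bp on the other autosomes. By chromosome it ran from 62227 bp on chromosome 22 to 150389 bp on chromosome 6. For 88 sites (6.15%) no other p68 site lay within 1 Mb, against 1.09% over the 22 autosomes (153 of 14033). The most isolated one was 7697719 bp from its nearest neighbor. Since sparse sites lie farther apart, these distances and shares are tied to the density and were not tested separately from it.

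Joining p68 sites with gaps of at most 10 kb gave 1328 groups, of which 1235 were single sites, 85 were pairs, 6 had 3 sites and 2 had 4. No group had 5 or more, while the 15 other autosomes had 163 such groups, the largest of 25 sites. Groups of that size were also missing from 6 of the 15 others. One group of 4 lay on chromosome 4 from 2509916 to 2526506, inside the fullest window of that chromosome, with sites of 890 to 2356 bp. The other lay on chromosome 13 from 20340421 to 20351921 and includes the first p68 site of the chromosome, with 52.2% of its length covered by sites of 809 to 2054 bp. Of the groups of 3, the first by position lay on chromosome 4 from 3662059 to 3670141. The SRA site nearest to any of these 3 groups was 182514 bp away. Another group of 3, on chromosome 13 from 100680139 to 100701222, was 30726 bp from an SRA site. Even windows with 18 p68 sites thus held no group of more than 4.

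The median width of p68 sites on these chromosomes was 1001 bp (95% interval of the median 988 to 1023 bp), and the middle 50% of sites measured between 857.5 and 1257.5 bp. On the 15 other autosomes it was 1220 bp (1207 to 1233 bp), and 1130 bp with chromosomes 1 and 12 left out. Chromosomes 8, 14 and 17, with 1025, 960 and 984.5 bp, did not exceed the highest median of the 7. The 7 medians lay close together, between 963 bp on chromosome 6 and 1057.5 bp on chromosome 13. The median width was larger in fuller windows, a description made after the widths had been seen. In windows with 1 or 2 sites the median was 940 bp (917 to 967 bp), in those with 3 to 9 it was 1027.5 bp (1004 to 1053 bp), and in hot spots it was 1075 bp (1038 to 1156 bp). The other autosomes gave 983.5, 1087.5 and 1316.5 bp for the same classes. In the sparsest windows the intervals of the 2 sets overlap (917 to 967 bp and 962 to 1000 bp), and in hot spots they do not (1038 to 1156 bp and 1301 to 1333 bp). Because hot spots of the other autosomes hold up to 116 sites, the last class does not compare windows of equal density.

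**Figure D4:**
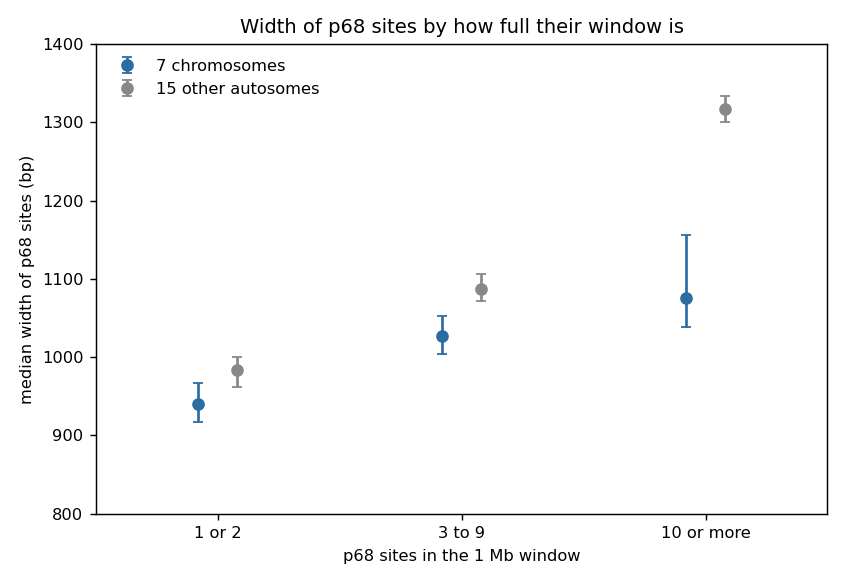
Points give the median width of p68 sites by the number of p68 sites in their 1 Mb window, with 95% intervals of the median, for the 7 chromosomes and the 15 other autosomes (the vertical axis does not begin at 0). Medians run from 940 to 1075 bp on the 7 chromosomes and from 983.5 to 1316.5 bp on the others.

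Broad sites were few. Only 14 of the 1431 p68 sites were wider than 3000 bp (0.978%, 95% Wilson interval 0.584 to 1.64%), and hot spots held 1 of them. The share on the 15 other autosomes was 5.65%, but chromosomes 1 and 12 supplied 518 of their 712 broad sites. By chromosome the share had a median of 1.01% on the 7 and 0.993% on the 15 others, so that few broad sites were not particular to the 7. The widest was a site of 7503 bp on chromosome 5, from 1041510 to 1049012, and it was followed by sites of 6888 bp on chromosome 6 (58773447 to 58780334), 6702 bp on chromosome 4 (49104336 to 49111037) and 6627 bp on chromosome 10 (42661137 to 42667763). The second widest site of chromosome 5 measured 2685 bp. The widest sites of chromosomes 13, 22 and 18 measured 4944 bp (110434721 to 110439664), 4159 bp (48977750 to 48981908) and 2368 bp (60864981 to 60867348). The broad site on chromosome 6 had 1953159 bp without p68 before it and 5406086 bp after it. Chromosome 10 had 3 broad sites between 42397654 and 42667763, preceded by 7293284 bp without p68. Chromosome 4 had a second broad site of 3210 bp from 49653229 to 49656438, followed by 3408720 bp without p68. In all, 5 of the 14 bordered a p68-free stretch of over 1 Mb, as did 340 of all 1431 p68 sites (23.8%). The positions of centromeres and repeats in hg19 were not used here, and the reads behind these sites were not examined.

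The 131 SRA sites were spread over 6 of the chromosomes and seldom met p68. Edges were at most 500 bp apart, the distance the authors set between peaks, for 9 of them, which is 6.87% (95% Wilson interval 3.66 to 12.5%), against a background of 11.6% over the 22 autosomes. The interval includes this background, counted from the deposited lists, so a difference from it was not detectable with so few sites. The authors report a higher share of SRA sites with p68, over their whole list of SRA sites. Its counterpart here is the 11.6%, not the share on the 7 chromosomes. That value too was below the reported one, and the discrepancy was not examined. From the p68 side, the same 9 pairs made up 0.629% of p68 sites (0.331 to 1.19%), against a background of 6.59%, and this share is bounded by the low number of SRA sites that chose the chromosomes. Of the 9 SRA sites, 5 were on chromosome 4, 2 on chromosome 5, 1 on chromosome 6 and 1 on chromosome 13. Without chromosome 4 there were 4.

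Of the 9 pairs, 6 overlapped and 3 were separated by a gap. On chromosome 4 an SRA site from 1684218 to 1685683 overlapped the p68 site from 1685668 to 1686957 by 16 bp. The SRA site from 1871185 to 1872520 overlapped the p68 site from 1872244 to 1874499 by 277 bp. Farther along, the SRA site from 15657458 to 15659196 shared 109 bp with the p68 site from 15656179 to 15657566, and that from 17005571 to 17007437 shared 188 bp with the p68 site from 17007250 to 17007892. The fifth, from 6781395 to 6783453, ended 224 bp before the p68 site from 6783678 to 6785689. In none of these 5 pairs did the midpoint of the p68 site lie inside the SRA site.

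On chromosome 5 both pairs were in its fullest window. The SRA site from 176851987 to 176853866 shared 571 bp with the p68 site from 176853296 to 176854220, the only pair in which the p68 midpoint lay inside the SRA site. The SRA site from 176981573 to 176982973 shared 337 bp with the p68 site from 176981066 to 176981909. The pair of chromosome 6 consisted of the SRA site from 107437383 to 107439349 and a p68 site from 107435567 to 107437177, with a gap of 205 bp. The pair of chromosome 13 consisted of the SRA site from 112011206 to 112013383 and the p68 site from 112009869 to 112010843, with a gap of 362 bp. The overlaps ran from 16 to 571 bp (median 232.5 bp), and 6 SRA sites of the 9 lay in windows with at least 10 p68 sites. These 9 were picked by a p68 site nearby and such windows by their p68 count, so nothing is read from this number.

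The other SRA sites were farther away. Over all 131 the median distance to the nearest p68 site was 33908 bp (95% interval of the median 19672 to 46997 bp), and it was 22224.5 bp (21007 to 23203 bp) on the 15 other autosomes. These intervals overlap. Among the others, chromosomes 2, 3, 8, 15 and 17 had longer medians than 33908 bp, from 34754 bp on chromosome 15 to 92375 bp on chromosome 17. A p68 site lay beyond 500 bp but within 10 kb for 24 SRA sites, between 10 and 100 kb for 67, and beyond 100 kb for 31 (23.7%, 95% Wilson interval 17.2 to 31.6%). The beyond-100-kb share was 17.4% on the other autosomes. Several SRA sites often had the same nearest p68 site, 100 p68 sites serving for the 131.

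Distances differed among the chromosomes. Chromosome 4 had the shortest median, 15356 bp over 42 SRA sites, and besides its 5 pairs the nearest SRA sites were at 679 bp (6908975 to 6910412) and 2240 bp (1694500 to 1695889). Its farthest SRA site, from 18594798 to 18595916, was 281606 bp from p68. Chromosome 5 had a median of 17045 bp over 12 SRA sites. Next to its 2 pairs came sites at 6427 bp (34191339 to 34193033) and 8456 bp (176815017 to 176818342), and the farthest, from 175030506 to 175031629, was 834770 bp away, the largest distance among the 131.

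Chromosome 13 had a median of 33737 bp over 51 SRA sites. After its pair came SRA sites at 1120 bp (100338016 to 100344422) and 1878 bp (111063711 to 111065263), and the farthest was at 615781 bp (74295957 to 74297123). The last of these is also the first SRA site of the chromosome. Of the 196 p68 sites of chromosome 13, 49 lay before that position, where no SRA site was listed, and 147 from there on. On chromosome 10 no SRA site had p68 within 500 bp, and the median was 83991 bp over 21 sites. The nearest were at 4252 bp (46983047 to 46984770) and 6321 bp (29632762 to 29634968), and the farthest at 768801 bp (26502634 to 26503892). Chromosome 10 had 100 p68 sites beyond its last SRA site, which ended at 104263761, and these included both of its hot spots.

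Chromosome 6 had 4 SRA sites. Apart from the pair, they lay at 80846 bp (2989361 to 2990776), 92151 bp (16331443 to 16332666) and 168916 bp (30582086 to 30583705) from p68. The single SRA site of chromosome 18, from 56306650 to 56308005, was 86354 bp from the p68 site from 56394360 to 56395121. The 12 p68 sites of the fullest window of chromosome 18 were therefore all far from any listed SRA site. SRA sites of the 7 chromosomes were 1026 to 7704 bp wide with a median of 1766 bp (1620 to 1962 bp), and the median was 2239.5 bp (2206 to 2274 bp) on the other autosomes. Chromosomes 8, 9, 15, 17, 19 and 20 had medians of 1573 to 1966 bp, not above the highest of the 7 (1971 bp, chromosome 13).

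**Figure D5:**
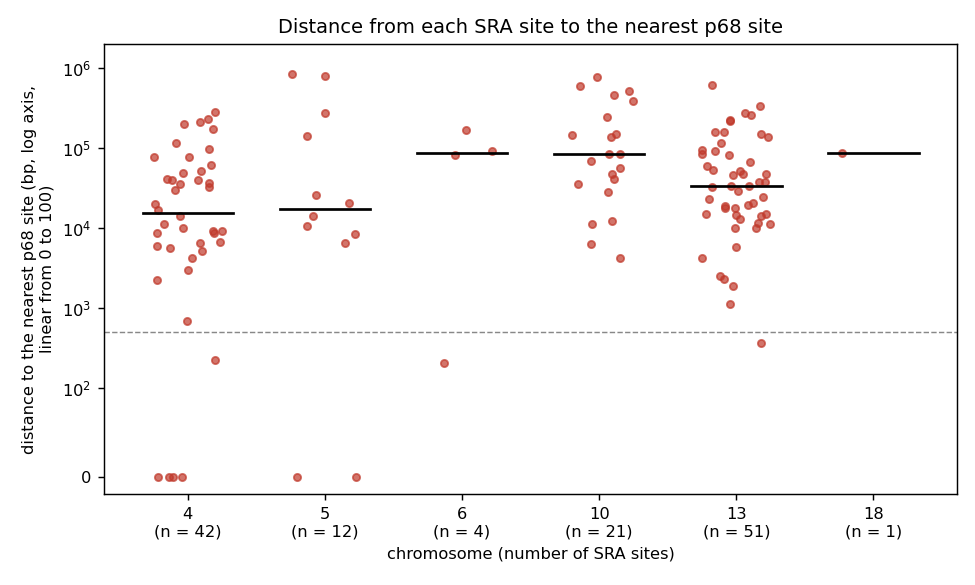
Each point is an SRA site, placed by its distance in bp to the nearest p68 site (logarithmic above 100 bp, 0 for overlap) and grouped by chromosome, with the median as a black line and 500 bp as a dashed line. Of the 131 points 9 lie at or below the dashed line, and medians run from 15356 bp on chromosome 4 to 86498.5 bp on chromosome 6.

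Although few SRA sites touched p68, windows with an SRA site held more p68 sites on average than windows without. The 62 windows with an SRA site held a median of 4 p68 sites (range 0 to 18) and a mean of 5.52 (95% exact Poisson interval 4.95 to 6.13), while the 826 windows without SRA held a median of 1 (range 0 to 13) and a mean of 1.32 (1.24 to 1.399). The ranges overlap, and 4 windows with SRA had no p68 site. The means on the other autosomes were 10.1 and 3.04. In the interior alone, with the 10 windows at each end left out, windows with SRA held 3.52 p68 sites on average (2.98 to 4.14) and those without held 0.962 (0.891 to 1.04).

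The same order was seen on each of the 6 chromosomes that had SRA sites, though on 2 of them few windows stood behind it. Chromosome 4 had 8.12 p68 sites per window with SRA (17 windows) and 0.903 without, and chromosome 13 had 6.26 (19 windows) and 1.01. Chromosome 5 had 3.88 (8 windows) and 0.948, and chromosome 10 had 3.08 (13 windows, 2.20 to 4.19) and 1.91 (1.67 to 2.17). The 20 end windows of chromosome 10, all without SRA, held 4.70 per window (3.80 to 5.75), more than its windows with SRA. Chromosome 6 had 2.5 (4 windows, 1.20 to 4.60) and 1.26 (1.09 to 1.44), where the intervals overlap, and chromosome 18 had 4 in a single window and 1.38 elsewhere.

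The p68 density was highest close to SRA sites and lower farther away, on average over the 6 chromosomes with an SRA site. Within 10 kb of an SRA site there were 12.2 p68 midpoints per Mb (95% exact Poisson interval 8.26 to 17.5, 30 midpoints), between 10 and 100 kb there were 6.79 (5.58 to 8.18, 110 midpoints), and between 100 and 1000 kb there were 3.61 (3.19 to 4.07, 266 midpoints). Midpoints inside SRA sites were not counted. Without chromosome 4 the densities were 7.79 (4.15 to 13.3), 6.24 (4.86 to 7.88) and 3.01 (2.58 to 3.50). The intervals on either side of 10 kb then overlapped, while those on either side of 100 kb did not. Because neighboring sites are not independent these intervals are too narrow, and neither step was tested. Without chromosome 13 they were 15.3, 6.10 and 3.29.

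Set against the number of genes, p68 sites were again few on most of these chromosomes. A RefSeq table of GRCh38.p14 lists 4516 protein-coding genes on the 7 chromosomes, which gives 31.7 p68 sites per 100 genes, and 86.3 per 100 genes on the other autosomes. Gene numbers of another assembly were used only as totals per chromosome. Chromosome 6, with 1049 genes, had 21.0 p68 sites per 100 genes, and chromosome 5, with 904 genes, had 21.6. Chromosome 22, the densest of the 7 per window, had 30.8 per 100 genes (451 genes), and chromosome 13 had the most, 58.0 per 100 genes (338 genes). Chromosomes 10, 4 and 18 had 37.5, 38.4 and 40.7. Counted in this way chromosome 22 was no longer the highest, and chromosome 17 had the lowest value among the other autosomes, 20.5. Chromosomes 11, 14 and 19, with 57.96, 26.9 and 50.4, lay within the range of the 7. Few p68 sites per gene were thus not particular to the 7.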

How the data were processed

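SRA ChIRP and p68 ChIP of NTERA2 cells were deposited as 1 list of sites each (chromosome, start and end in bp, no score). Per the study's methods, the authors aligned single-end reads to hg19, removed duplicates and reads of low mapping quality with SAMtools, called peaks with MACS at a stricter p-value for p68 than for SRA, intersected the 3 replicates with ChIPpeakAnno and subtracted LacZ probe peaks from the SRA list with bedtools. The submitters' processing notes also name CASAVA 1.8.2, and the aligner is not given in the sources used here. A site missed in a single replicate is therefore absent, and thresholds differ between the lists.

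All rows on the 7 chromosomes were used unfiltered. Positions are printed with the first base as 1. The chromosomes, window size and definitions were chosen with earlier results of these data known. Distances are between edges, and overlapping sites are at 0. Intervals are 95% Wilson (shares), exact Poisson (densities) and order-statistic (medians). No test was run, since regions are not replicates. Sites and windows printed singly are the fullest window, widest site and longest p68-free stretch of each chromosome, the 10 fullest windows, the 3 largest groups, and SRA sites: all on a chromosome with fewer than 10, otherwise those within 500 bp of p68, the 2 nearest besides and the farthest. Other broad sites, groups and hot spots were named, and chromosomes 1 and 12 left out of a comparison, after their values were seen. The counting code was tested on simulated data. Python 3.11.15, numpy 2.4.6, scipy 1.17.1, pandas 2.3.3 and matplotlib 3.10.9 were used.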

Additional observations from a re-analysis of the deposited data

How the results depend on the processing

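Of 59 alternatives over 7 results, 47 left the value within its interval (for the count of shared SRA sites, within 1.5 times) and 12 moved it. The density of 1.61 p68 sites per window became 1.495 with sites within 10 kb counted once, 1.75 without chromosome 5 and 1.51 without chromosome 22. The 2.14% of windows that were hot spots became 9.68% at 5 sites and 0.450% at 15. The 13.7% of p68 sites with a neighbor became 3.63% at 2 kb and 37.2% at 50 kb. The geometric mean width was 1061 bp in place of the median of 1001 bp. The 9 SRA sites with p68 became 4 without chromosome 4 and 0 with distances measured between midpoints at the same limit. The ratio of end to interior density, 3.90, became 4.55 with 5 windows at each end and 3.30 without chromosome 4. Apart from the geometric mean, which is another statistic of the same sites, these settings count fewer or other sites by construction. Alternatives for the ends, and leaving out chromosomes for results other than density, were added after the data had been seen. No paired analysis was possible because each assay came as 1 merged list, and single replicates could not be removed. The lists give no depth, so weak sites below the callers' thresholds cannot be assessed.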

Other observations

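Chromosomes 14 and X had as few SRA sites as several of the 7 and were outside the rule. Chromosome 14 had 163 p68 sites, or 1.87 per window (95% exact Poisson interval 1.60 to 2.18), and 39.1% of its windows were empty. Its fullest window held 11 p68 sites and was followed by 3 further windows, its last 10 windows held 58 p68 sites, and 16.0% of its p68 sites had another within 10 kb. The 10 SRA sites of chromosome 14 had a median distance of 7900 bp to p68, and 1 of them had p68 within 500 bp. Chromosome X had 87 p68 sites, or 0.572 per window (0.458 to 0.706), with 71.7% of windows empty, no hot spot and 4.60% of p68 sites with another within 10 kb. Its last 10 windows held 5 p68 sites and its first 10 held 14. The last 10, at 0.5 per window from only 5 sites, were not denser than its interior, at 0.515. On each of the 7 chromosomes they were, though with overlapping intervals on chromosome 22.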
